A study of Mus musculus with 4 samples.

Results

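The S100 calcium-binding proteins were followed in the aorta of mice that lack apolipoprotein E. Members were the genes S100a1, S100a4, S100a6, S100a8, S100a9, S100a10, S100a11, S100a13 and S100b, each taken through every probe set whose platform annotation names that gene and no other. This gave 11 probe sets for 8 of the 9 genes, out of 12393 genes on the array. S100a11 has 1 probe set, which carries 3 gene names, those of S100a11, of the pseudogene S100a11-ps and of Gm12854, so it was not analysed here. S100a1, S100a10 and S100b have 2 probe sets each and the other 5 genes have 1.

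Aortic RNA came from 6-week-old female apoE-/- mice of the C57BL/6 or the C3H/HeJ strain (C3H below). The mice were weaned at 3 weeks and ate chow throughout or a Western diet from 4 weeks on, for 2 weeks. The 4 groups were thus C57BL/6 apoE-/- on chow, C57BL/6 apoE-/- on Western diet, C3H apoE-/- on chow and C3H apoE-/- on Western diet. All of them carry the apoE defect, so every comparison is made within hyperlipidaemic animals, and the labels call the chow animals hyperlipidemic and the Western-fed ones extremely so. Each group had 1 array, and the sources used here do not give how many animals its RNA came from. No difference between arrays has a replicate check, and having so few arrays limits the precision of all values.

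S100 proteins are small proteins with paired EF-hand loops that bind calcium, change shape and then grip a partner protein. S100a8 and S100a9 form calprotectin, which makes up much of the cytosolic protein of neutrophils and is also made by young monocytes. Once released, it acts on toll-like receptor 4 and on the receptor for advanced glycation end products. Other members stay mostly in the cell types that make them, such as muscle (S100a1), fibroblasts (S100a4 and S100a6) and glia, cartilage and fat (S100b). C3H/HeJ mice are known to carry a defective toll-like receptor 4, and they are known to form smaller atherosclerotic lesions than C57BL/6 mice.

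Signals, in the array's arbitrary brightness units, were quantile normalized between the arrays. The 40th percentile of all normalized signals, 83.6, served as a floor, and a signal at or under it is read only as a bound. Of the 11 probe sets, 9 were above the floor on all 4 arrays. The exceptions were the 2 sets of S100b. Apoe lay under the floor on every array, with signals of 19.1 and 65.3 in C57BL/6 and 16.1 and 55.5 in C3H (chow and Western), which checks the labels little because the place of its probes relative to the disrupted part is not given here. The C3H chow array stood apart from the others, with Pearson correlations over all probe sets of 0.705 to 0.726 against 0.746 to 0.761 among the remaining pairs, so both comparisons that use it rest on the least typical array. Its ratio of 3′ to 5′ actin control signal, a sign of RNA integrity, was 2.28, against 1.63 to 1.83 on the others. Markers of the aortic wall were present, with 10 of 10 smooth muscle genes above the floor on every array and 8 or 9 of 9 endothelial genes, such as Cldn5, Pecam1 and Vwf. Genes of heart muscle and of fat were also present, and their levels are given beside the members they bear on. In whole tissue, fewer cells of a type and less RNA per cell cannot be told apart.

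All of the S100a members lie on mouse chromosome 3, and S100b lies on chromosome 10. In the RefSeq gene table, S100a8 and S100a9 are neighbours with 0 coding genes between them, S100a1 and S100a13 are neighbours too, and S100a4 and S100a6 have 1 coding gene, S100a5, between them. RefSeq promoter windows of 300 bases (build GRCm38.p6) were found for 8 of the members, S100a11 included. The promoters of S100a8 and S100a9, and of S100a4 and S100a6, are shown because these are the neighbours whose signals moved most between arrays. The windows are S100a8 at chr3:90668821-90669120 (plus strand), S100a9 at chr3:90695672-90695971 (minus strand), S100a4 at chr3:90603520-90603819 (plus strand) and S100a6 at chr3:90612644-90612943 (plus strand). Each runs 5′ to 3′ on its gene's strand from 250 bases before the start to 50 after it, and capitals mark matches to the motifs named below.
S100a8: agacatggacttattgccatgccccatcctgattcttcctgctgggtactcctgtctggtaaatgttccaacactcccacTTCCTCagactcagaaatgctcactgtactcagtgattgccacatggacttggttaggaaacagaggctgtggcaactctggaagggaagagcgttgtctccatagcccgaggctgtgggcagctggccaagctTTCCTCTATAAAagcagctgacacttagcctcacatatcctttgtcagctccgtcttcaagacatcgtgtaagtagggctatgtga
S100a9: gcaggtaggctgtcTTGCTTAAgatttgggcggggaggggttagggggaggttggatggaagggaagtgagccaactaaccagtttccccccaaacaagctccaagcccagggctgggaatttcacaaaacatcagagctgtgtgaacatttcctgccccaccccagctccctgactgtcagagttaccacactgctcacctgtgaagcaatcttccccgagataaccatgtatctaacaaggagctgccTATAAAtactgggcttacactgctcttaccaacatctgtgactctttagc
S100a4: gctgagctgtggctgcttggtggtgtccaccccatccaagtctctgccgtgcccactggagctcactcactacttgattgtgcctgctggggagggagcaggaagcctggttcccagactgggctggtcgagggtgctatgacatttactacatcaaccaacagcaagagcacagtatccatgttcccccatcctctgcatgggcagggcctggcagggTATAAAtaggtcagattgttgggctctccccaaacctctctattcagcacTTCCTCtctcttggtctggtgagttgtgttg
S100a6: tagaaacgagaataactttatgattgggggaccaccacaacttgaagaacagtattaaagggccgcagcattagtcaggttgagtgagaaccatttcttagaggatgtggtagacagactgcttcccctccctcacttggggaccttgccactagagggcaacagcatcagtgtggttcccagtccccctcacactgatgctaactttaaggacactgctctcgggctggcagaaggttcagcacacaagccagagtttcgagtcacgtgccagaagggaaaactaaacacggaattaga

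Motifs were searched on both strands of these windows. The PU.1 core GAGGAA, bound by a myeloid transcription factor, occurred in 28.3% of 32851 windows of this length and matched S100a8 at 2 places on the minus strand, at bases 81 and 215. The latter touches the TATA box motif TATAAA at base 221. TATAAA occurred in 13.6% of windows and also in S100a9 at base 251, at the start that the table gives, and in S100a4 at base 220. The C/EBP form TTGCNNAA, found in 10.8% of windows, matched S100a9 at base 15. S100a4 held 1 match to GAGGAA, at base 270 on the minus strand. The AP-1 motif TGANTCA (7.81% of windows) and a kappa B form (1.47%) had no match in these 4 windows. The kappa B form searched has 10 bases and is not palindromic. S100a6 had no match to any of the 5 motifs.

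With Western diet, the calprotectin genes had the highest responses of the members above the floor on both arrays, and they were higher in both strains. The responses of S100b, with a chow signal under the floor in 1 of the strains by either probe set, are known only as bounds there. S100a8 (probe set 1419394_s_at) had signals of 104.3 and 496.3 in C57BL/6 (chow, then Western) and of 115.6 and 538.0 in C3H. Both chow arrays were thus little above the floor, and both Western arrays were well clear of it. Groups of 4 signals keep this order of arrays from here on. S100a9 (1448756_at) had signals of 217.8, 871.5, 350.5 and 1325 in the same order. Its Western arrays were again both higher than its chow arrays.

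The response of S100a8 was 4.76-fold in C57BL/6 and 4.65-fold in C3H, which differ by log2 -0.03 (C3H minus C57BL/6). That of S100a9 was 4.00-fold and 3.78-fold, a difference of log2 -0.08. As a yardstick, diet responses were read from separate probe sets of 1 gene (1675 genes with several sets). Their pooled SD was log2 0.48 in C57BL/6 and 0.57 in C3H. The response of neither gene differed between the strains by more than this spread. It is a spread between probe sets on the same arrays, of 1 response and not of a difference of 2. It holds no variation between animals or arrays, so it cannot tell whether the strains respond alike. Between the strains, S100a9 was higher in C3H by 1.61-fold (chow) and 1.52-fold (Western diet), while S100a8 differed by 1.11-fold and 1.08-fold. The strain differences of S100a9 (log2 0.69 and 0.60) exceeded the probe-set SDs of 0.60 and 0.51 by little.

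**Figure D1:**
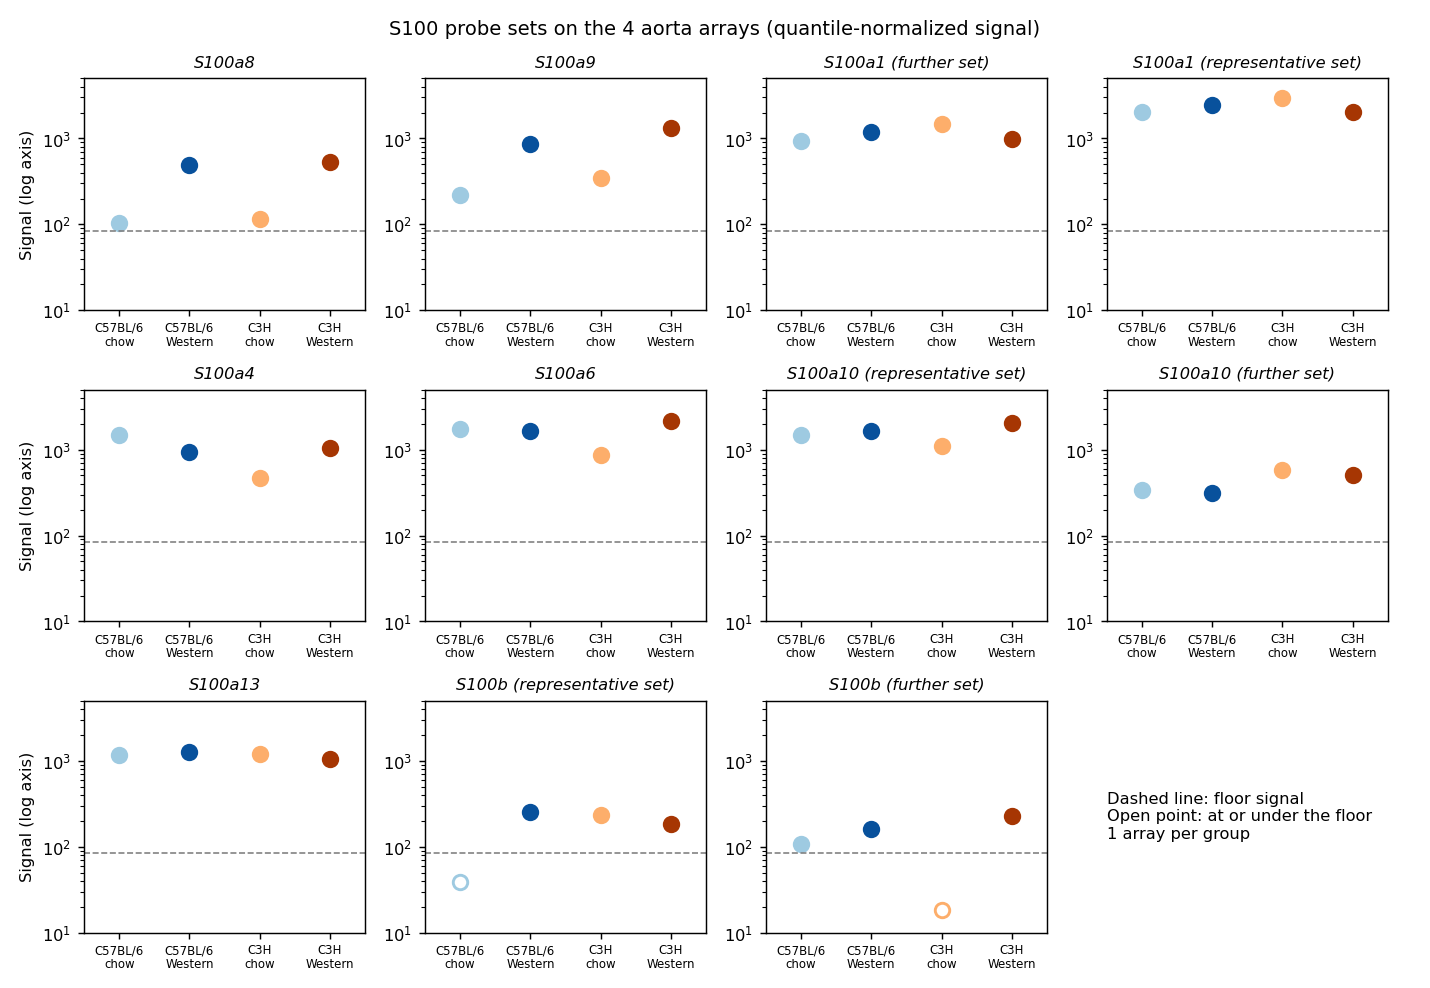
Signal of each S100 probe set (log axis) on the 4 arrays, 1 point per array and 1 panel per probe set, with the floor of 83.6 as a dashed line and open points at or under it. S100a8 and S100a9 are high on the 2 Western arrays, S100a4 and S100a6 are lowest on C3H chow, and the 2 sets of S100b are each under the floor on a different array.

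Of the genes above the floor on all 4 arrays, 5646 in number, 11 were at least 2-fold higher with Western diet in both strains (0.195%), and S100a8 and S100a9 are 2 of these 11. Ranked by the smaller of the 2 responses, they stand at positions 1 and 2, with log2 2.22 and 1.92, ahead of the leukocyte surface gene Cd53 at 1.49. The 2 diet responses share no array. Cd53 is also the gene whose pattern over the 4 arrays lay nearest to S100a8, at a Euclidean distance of log2 0.57 among 5645 genes, and nearest to S100a9, at 0.51. S100a8 and S100a9 are 0.58 apart and each holds position 2 in the other's order.

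**Figure D2:**
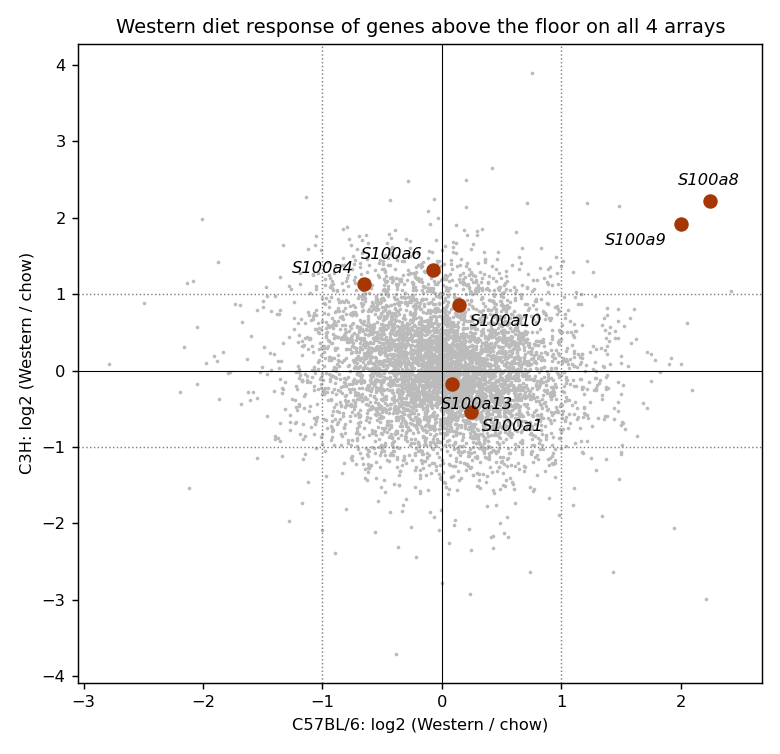
Western diet response in C3H (vertical axis, log2 Western over chow) against that in C57BL/6 (horizontal axis), with 1 grey point for each of 5646 genes above the floor on all 4 arrays and the 7 such S100 genes in red. Dotted lines mark 2-fold, and S100a8 and S100a9 lie past 2-fold on both axes, with smaller responses of 2.22 and 1.92, and S100a4 and S100a6 sit above the 2-fold line for C3H only.

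An additive limma fit over 14915 probe sets, with terms for strain and diet, took the strain-by-diet difference as its error (1 residual degree of freedom beside a prior of 17.3). Its diet term was log2 1.96 for S100a9 (SE 0.35, limma adjusted p = 0.424) and log2 2.23 for S100a8 (SE 0.53, limma adjusted p = 0.9996), with both Western arrays above both chow arrays. Ordered by p, they stood at positions 1 and 5 of all probe sets, at 3 and 8 with no filter on low signals, and at 317 and 249 with no mean trend. After Benjamini-Hochberg adjustment neither passed 0.05, and nor did any other set (0 of 14915, 0% in either direction, with 367 at an unadjusted limma p under 0.05). With no filter on low signals, limma called 5 of 22626 probe sets for diet, S100a9 among them (adjusted p = 0.00159), and S100a8 had an adjusted p of 0.135. A two-sided exact permutation test on 2 Western and 2 chow arrays has p = 0.333 as its smallest value. For strain, 57 probe sets passed in limma (0.121% of all higher in C3H and 0.261% lower), and 0 of the 11 S100 sets did (lowest adjusted p 0.847, and 0 at an unadjusted p under 0.05).

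Calprotectin is a product of neutrophils and monocytes, so the fixed lists of leukocyte genes are given beside it. Of 16 neutrophil granule and surface genes on the array, 10 were above the floor on at least 1 array. In the order above, 4, 7, 3 and 7 of the 16 passed it, and their summed signal was 1022, 1228, 798 and 1380. Counting only the signal above the floor, the sums were 233, 399, 291 and 526, which turns the order of the chow arrays. Of 2 measured on both arrays in C57BL/6, 0 differed 1.5-fold with diet, where 13.8% of all genes were higher and 14.3% lower. Of 3 in C3H, 1 was higher and 1 lower, against 17.1% of all genes in each direction. The 6 that lay under the floor on all 4 arrays were the neutrophil proteases Elane, Prtn3 and Ctsg, the chemokine receptor Cxcr2, and Stfa3 and Cd177. Ltf passed the floor on both Western arrays and neither chow array, with signals of 66.9, 92.7, 11.2 and 118.3. Camp, Chil3 and Csf3r passed it on C57BL/6 Western alone and Mmp8 on C3H Western alone, each by little. Mpo and Mmp9 passed it on C57BL/6 chow and C3H Western. Lcn2, which encodes a granule protein that binds iron-carrying siderophores, had signals of 40.3, 259.0, 133.6 and 240.6, and was highest on the 2 Western arrays. Ngp, another granule protein gene, had 206.8, 249.4, 223.6 and 224.0, and Il1b had 155.4, 111.0, 184.9 and 93.4, lowest on the Western arrays.

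Pan-myeloid genes had summed signals of 2784, 4023, 2290 and 4160, with 7, 11, 9 and 11 of 13 above the floor. In C57BL/6, 2 of 7 measured members were at least 1.5-fold higher with Western diet and 0 lower (median log2 0.22, where 13.8% and 14.3% of all genes were higher and lower). In C3H, 5 of 9 were higher and 1 lower (median 0.59, against 17.1% in each direction of all genes). The lysozyme gene Lyz2, their strongest, had signals of 1419, 1658, 1015 and 2160, and Laptm5 and Plac8 came next at 270.3, 290.3, 143.4 and 286.8, and 290.4, 344.4, 134.4 and 202.2. Macrophage genes summed to 2801, 3686, 2991 and 5042, with 9, 11, 8 and 11 of 11 above the floor. In C57BL/6, 3 of 9 measured members were at least 1.5-fold higher with Western diet and 0 lower (median 0.41). In C3H, 3 of 8 were higher and 0 lower (median 0.39). Mpeg1 and Cd163, above the floor on both Western arrays and neither chow array, are in neither count. Adgre1, under it on C3H chow alone, is not in the count of C3H. The growth factor receptor Csf1r, which defines the lineage, had 800.4, 856.7, 1082 and 1519, the galectin Lgals3 had 461.6, 480.6, 357.1 and 807.3, and the complement gene C1qa had 268.1, 277.8, 472.3 and 480.7. All 3 were highest on C3H Western. The median over all genes was 0.0 in C57BL/6 and -0.01 in C3H. The heme synthesis gene Alas2, strongest of the erythroid genes, had 180.3, 303.5, 142.7 and 2116, high on C3H Western alone, and Car2 and Slc4a1 had 265.1, 204.4, 209.8 and 572.8, and 44.5, 60.2, 146.3 and 127.8. The part of any of these lists in the calprotectin result was not tested.

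Of the 8 genes for S100 receptors and their toll-like receptor partners, 1 of 6 measured was at least 1.5-fold higher with Western diet in C57BL/6 and 0 of 4 in C3H, with 0 lower in either, where 13.8% and 17.1% of all genes were higher. The scavenger receptor Cd36 and the matrix metalloproteinase inducer Bsg were their strongest, with signals of 4682, 6089, 7620 and 5273 for Cd36 and of 4274, 3446, 3147 and 3338 for Bsg. Alcam, the third by mean signal, had 286.2, 328.5, 61.2 and 267.1. The 2 classical receptors of calprotectin were looked up for their role and not by the rule for named genes. Tlr4 had signals of 260.3, 217.0, 39.2 and 225.2, and thus lay under the floor on C3H chow. Ager, the receptor for advanced glycation end products, had 12.7, 226.3, 23.6 and 24.6, above the floor on C57BL/6 Western alone.

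S100a4, S100a6 and S100a10 were lowest on C3H chow by their representative sets. S100a4 (1424542_at), which binds nonmuscle myosin and is widely used as a fibroblast marker, had signals of 1469 and 935.3 in C57BL/6 (chow, then Western) and of 470.0 and 1032 in C3H. Its highest and its lowest value thus both came from chow. Relative to C57BL/6, C3H was lower by 3.13-fold (chow) and higher by 1.10-fold (Western diet). With Western diet the signal was lower by 1.57-fold in C57BL/6 and higher by 2.19-fold in C3H. The C3H response and the strain difference on chow share the C3H chow array. The responses differ by log2 1.79, a difference that has no test with 1 array per group. The S100a4 difference between the strains had an adjusted p of 0.847 in the strain term of limma (log2 -0.75, SE 0.38).

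S100a6 (1421375_a_at), calcyclin, a partner of the calcyclin-binding protein and of annexins, had signals of 1720, 1632, 864.8 and 2146 in the same order. Its C3H chow array was low and the other 3 arrays lay close together. Relative to C57BL/6, it was lower in C3H by 1.99-fold (chow) and higher by 1.31-fold (Western diet). Its Western diet response was 2.48-fold in C3H, while in C57BL/6 the arrays differed by 1.05-fold, and the responses differ by log2 1.39 with no test. S100a10 (1416762_at), which does not bind calcium and forms a complex with annexin A2, had 1499, 1656, 1113 and 2023. Its C3H chow array was again the lowest and C3H Western the highest, and its response was 1.82-fold in C3H and 1.11-fold in C57BL/6.

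The further set of S100a10 (1456642_x_at), of a type whose probes can also bind other transcripts, showed another pattern, with signals of 340.2, 309.4, 572.7 and 510.9. By this set S100a10 was 1.68-fold and 1.65-fold higher in C3H on chow and Western diet and varied by 1.10-fold and 1.12-fold with diet. The direction on chow was therefore opposite by its 2 sets (log2 -0.43 and 0.75).

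**Figure D3:**
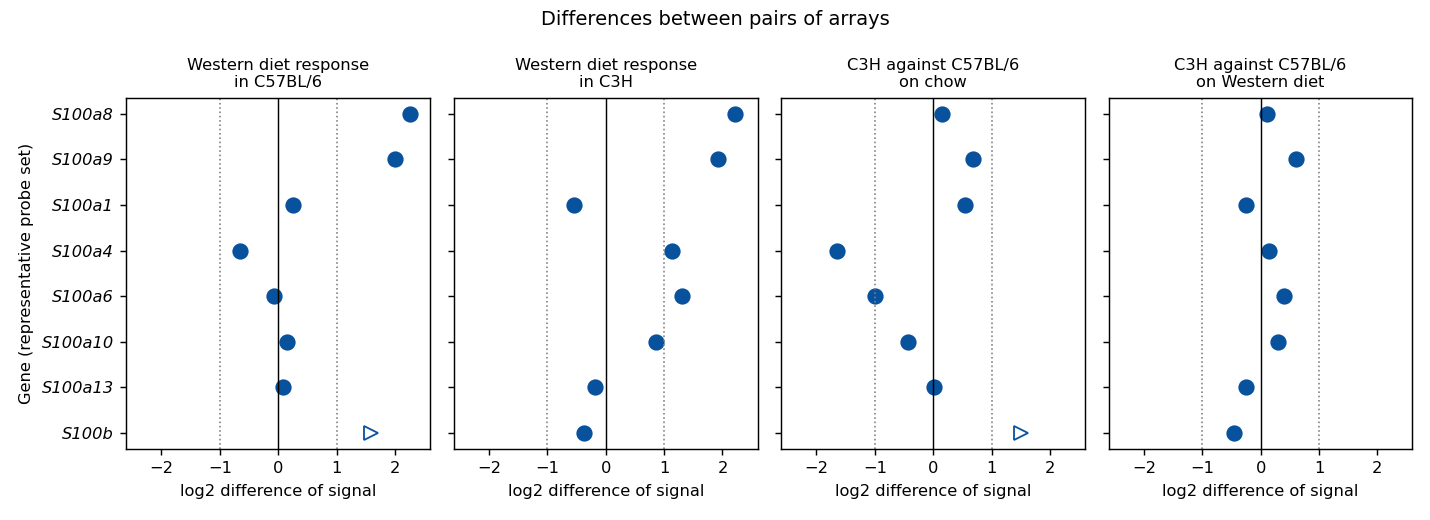
Log2 difference of signal (horizontal axis) between pairs of arrays for the representative probe set of each of 8 S100 genes, with dotted lines at 2-fold and open triangles for bounds against the floor. S100a8 and S100a9 lie beyond 2-fold in both diet responses, S100a4 and S100a6 only in the response of C3H, and on Western diet no member differed 2-fold between the strains.

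Counted over members above the floor on both arrays, 2 of 7 were at least 2-fold higher with Western diet in C57BL/6 and 0 lower, where 3.75% of 6776 genes were higher and 3.93% lower. In C3H, 4 of 8 were higher (S100a4, S100a6, S100a8 and S100a9) and 0 lower, where 6.47% and 5.87% of 6690 genes were. The median over these members was log2 0.14 in C57BL/6 and 0.998 in C3H. Equal array medians moved the median of all genes most in the response of C3H, from log2 -0.01 to 0.11, and the split of genes at least 2-fold higher and lower to 545 and 281 there, against 433 and 393, and on chow to 395 and 687, against 529 and 601. On chow, 1 of 7, S100a4, was at least 2-fold lower in C3H and 0 higher, against 9.1% and 8.01% of 6605 genes, a share near the background. On Western diet 0 of 8 differed 2-fold between the strains in either direction, against 4.07% higher and 4.2% lower of 6806 genes, and the median was log2 0.13. The diet responses of S100a4 and S100a6 were at least 2-fold higher in C3H than in C57BL/6, and 13.2% of all genes were so (12.2% the other way), so 2 of 7 members is not far from the background.

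Fibroblast genes were also lowest on C3H chow. Their summed signals were 102842, 53128, 38803 and 65810, with 12, 12, 11 and 12 of 12 above the floor. With Western diet, 6 of 12 measured members were at least 1.5-fold lower in C57BL/6 and 0 higher (median log2 -0.69). There 14.3% of all genes were lower and 13.8% higher. In C3H, 9 of 11 were higher and 1 lower (median 0.86, against 17.1% of all genes in each direction). On chow, 10 of 11 were lower in C3H and 0 higher (median -1.49, where 20.4% of all genes were lower and 20.8% higher), and on Western diet 3 of 12 were higher and 0 lower (median 0.26, where 13.3% of all genes were higher and 13.4% lower). Vim, the intermediate filament of mesenchymal cells, had signals of 26850, 20521, 16929 and 23900, and the collagen genes Col3a1 and Col1a2 had 22024, 6619, 5807 and 10571, and 18678, 6736, 4423 and 9397. Smooth muscle genes summed to 104601, 78227, 46472 and 74422, with 7 of 10 lower in C3H on chow and 0 higher (median -0.99). Their strongest were Acta2 (54541, 40729, 23565 and 34861), Tagln (23900, 18838, 9574 and 18678) and Myh11 (10426, 8093, 5598 and 7920), contractile genes that were lowest on C3H chow too. The part of these lists in the S100a4, S100a6 and S100a10 results was not tested.

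Over the 4 arrays, the patterns nearest to S100a4 were those of the matrix genes Optc and Smoc2, at distances of log2 0.04 and 0.12 among 5645 genes. Those nearest to S100a6 were Twist2, a transcription factor of mesenchyme, and Antxr1, at 0.06 and 0.12. S100a6 and S100a4 lay 0.62 apart, and S100a6 and S100a10 0.42.

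**Figure D4:**
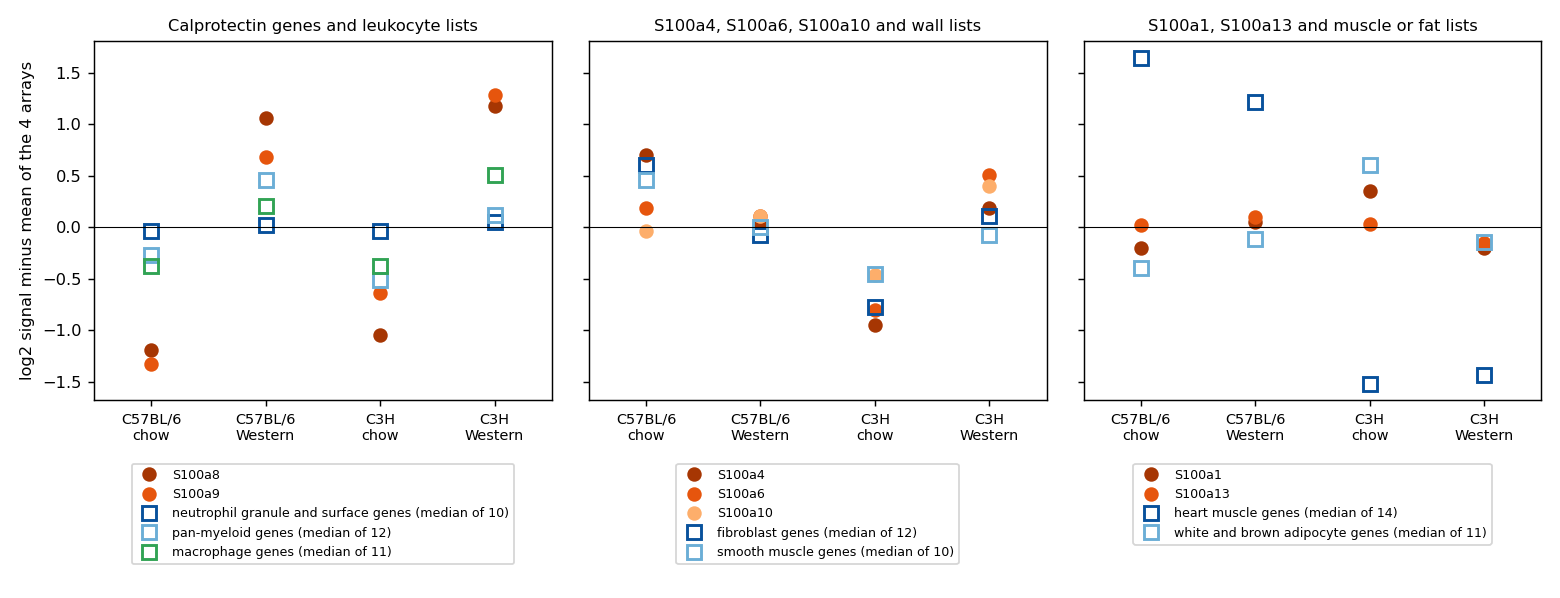
Log2 signal minus its mean over the 4 arrays (vertical axis, dim signals set to the floor) for S100 genes (filled circles) and the median of fixed gene lists (open squares) on each array. S100a4, at 0.70, 0.05, -0.94 and 0.19, lies near the fibroblast median of 0.60, -0.08, -0.78 and 0.11, and S100a1 does not share the strain difference of heart muscle genes.

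Of the protein partners of S100 genes, 14 of 16 were on the array. With Western diet, 1 of 11 measured was at least 1.5-fold higher in C57BL/6 and 0 lower (median log2 -0.02), and 5 of 10 were higher in C3H and 0 lower (median 0.58), where 13.8% and 17.1% of all genes were higher. On chow, 4 of 10 were lower in C3H and 1 higher, where 20.4% and 20.8% of all genes were. On Western diet 3 of 11 were lower and 1 higher, where 13.4% and 13.3% of all genes were. Myh9, the nonmuscle myosin bound by S100a4, had signals of 5666, 5577, 5043 and 6639, and Ahnak, which binds the S100a10-annexin A2 complex, had 4940, 4600, 3652 and 5939. Both were lowest on C3H chow and highest on C3H Western. Annexin A2 (Anxa2), looked up as the partner of S100a10 and outside the rule for named genes, had 3317, 2546, 2432 and 3976 and thus the same lowest and highest array. The calcium pump gene Atp2a2, whose product S100a1 binds in the heart, had 8971, 7599, 2336 and 2003, high on the C57BL/6 arrays.

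S100a1, which regulates calcium release and uptake in striated muscle, varied little. Its representative set (1419814_s_at) had signals of 2042 and 2424 in C57BL/6 (chow, then Western) and of 2992 and 2045 in C3H, a range of 1.47-fold, and its further set (1417421_at) had 937.4, 1201, 1487 and 981.8, a range of 1.59-fold. Both sets placed the arrays in the same order, with C3H chow highest and C57BL/6 chow lowest. Read from these sets in turn, S100a1 was higher in C3H by 1.47-fold and 1.59-fold on chow, and lower by 1.18-fold and 1.22-fold on Western diet. All of these differences lay within or little above the probe-set SDs.

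Heart muscle genes had a very different pattern, with summed signals of 18586 and 14543 in C57BL/6 and of 919 and 862 in C3H (chow and Western), and 13, 14, 4 and 3 of 14 above the floor. Cardiac actin (Actc1) had signals of 4417, 3428, 111.5 and 50.7, the alpha myosin heavy chain gene Myh6 had 2460, 2463, 73.8 and 131.6, and phospholamban (Pln) had 1135, 900.2, 200.1 and 179.9. Fast skeletal muscle genes summed to 2443, 1451, 1786 and 1700, with Casq1, Myl1 and Ckm as their strongest (435.8, 189.8, 372.8 and 348.9, 152.3, 424.3, 446.7 and 335.8, and 414.3, 274.8, 112.5 and 93.9). Adipocyte genes were highest on C3H chow, as S100a1 was, with summed signals of 94174, 116041, 180023 and 123057. On chow, 11 of 11 measured adipocyte genes were at least 1.5-fold higher in C3H (median log2 1.01), where 20.8% of all genes were. Fabp4 had signals of 26196, 28554, 40729 and 30108, and Lpl had 17796, 26196, 41872 and 23565. Cox8b, a subunit gene of brown fat and muscle, had 18838, 23565, 29004 and 25040. The part of fat in the S100a1 signal was not tested. By either set S100a1 differed by at most 1.59-fold between the strains, while the heart list differed by a median of log2 -1.97 on chow (4 members measured on both arrays, or -2.90 under cyclic loess and -4.14 under a 25th percentile floor) and -2.32 on Western diet (3 members).

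S100a13 (1418704_at), which takes part in the export of fibroblast growth factor and interleukin precursors that lack a signal peptide, was the steadiest member. It had signals of 1180, 1249, 1186 and 1050, a range of 1.19-fold over the 4 arrays. Its arrays did not differ beyond the probe-set SDs in any comparison. Its neighbour S100a1, whose promoter window overlaps its own on the opposite strand, thus had a somewhat wider range.

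S100b, a glial and Schwann cell protein that fat and cartilage cells also make, could not be placed, since its 2 probe sets disagreed. The representative set (1419383_at) had signals of 38.5 and 251.0 in C57BL/6 (chow, then Western) and of 236.7 and 183.0 in C3H, under the floor on C57BL/6 chow only. The further set (1434342_at) had 107.2, 158.5, 18.1 and 228.8, under the floor on C3H chow only.

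By the representative set, S100b was at least 3.00-fold higher with Western diet in C57BL/6 and at least 2.83-fold higher in C3H on chow. Among genes above the floor on at least 1 of the 2 arrays, 5.73% of 9461 and 10.1% of 9702 were at least 2-fold higher with the dim array set to the floor. By the further set it was 1.48-fold higher with Western diet in C57BL/6 and at least 2.74-fold higher in C3H (where 8.32% of 9624 genes were at least 2-fold higher in this way), and in C3H on chow it was lower by at least 1.28-fold. Only the higher signal of the Western array in C57BL/6 had the same direction in both sets. The patterns nearest to the representative set were those of Nprl3 and Zfpm1, at distances of log2 0.13 and 0.14 among 6043 genes, and both of these genes lay under the floor on C57BL/6 chow as well.

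Schwann cell genes had summed signals of 4585, 2823, 3070 and 3693, of which Pmp22, a myelin gene that other cells also express, made up 3689, 2116, 1891 and 2684. Sox10, which defines the lineage and was looked up for that, had 170.3, 43.6, 219.6 and 181.2, and Cnp and Mal had 244.1, 164.2, 152.0 and 232.2, and 90.2, 161.7, 257.3 and 131.1. With Western diet, 1 of 5 measured Schwann cell genes was at least 1.5-fold higher in C57BL/6 and 2 lower, and 1 of 7 was higher and 2 lower in C3H, where 13.8% and 14.3% of all genes were higher and lower in C57BL/6 and 17.1% each in C3H. Cartilage genes summed to 680, 343, 361 and 393, with Comp, their strongest, at 193.7, 194.5, 196.7 and 183.8. Sox9 and Acan, a regulator and a matrix component of cartilage, had 126.6, 42.6, 17.7 and 25.9, and 91.1, 41.5, 5.83 and 59.5. The part of these cells in the S100b signal was not tested.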

How the data were processed

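Aortic RNA of 4 groups was analysed, each on 1 array. Per the labels' protocols, RNA was isolated with Trizol, and 8 ug of total RNA entered the labelling for Affymetrix arrays read in 1 colour. The authors deposited linear intensities for 22690 probe sets. Controls, 64 in number, were left out. How the authors computed and scaled these intensities is not stated in any source at hand. All 4 arrays have nearly the same mean once 2% of values are trimmed from either end (250.11 to 250.12), but medians of 110.3 to 128.1.

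Log2 intensities of 22626 probe sets were quantile normalized in limma 3.58.1 (R 4.3.3). Probe sets were named from the platform's annotation, with 20380 naming 1 gene, 691 several and 1555 unnamed here. A gene is represented by its set with the highest mean log2 signal. The floor of 83.6 is a threshold of this work. Differences between 2 arrays have no test. The additive limma fit (lmFit, eBayes with a mean trend, Benjamini-Hochberg adjustment, adjusted p threshold 0.05) used the 14915 sets that passed the floor on 2 or more arrays and treats any unequal diet effect in the 2 strains as noise. The fit was also run on simulated data with added strain changes and equal noise in all probe sets. These held no diet change, so they do not check the diet term.

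Every probe set of the members is reported. From each fixed list the 3 genes with the highest mean signal are named, and for each member that varies at least 2-fold the 2 genes nearest by pattern. Tlr4, Ager, Anxa2, Sox10, S100a5, Mpeg1, Cd163, Adgre1 and the neutrophil genes other than Ngp, Lcn2 and Il1b fall outside this rule. They were picked with their values known. Members and lists were chosen with earlier results of these data known. The fixed lists cover S100 receptors, partners and other family genes, neutrophil, pan-myeloid, macrophage, erythroid, lymphocyte, Schwann cell, cartilage, heart muscle, fast skeletal muscle, fibroblast, smooth muscle, adipocyte and endothelial genes. Alternatives were no further normalization of the deposited intensities, equal medians, cyclic loess, a floor at the 25th or 60th percentile, the median over a gene's probe sets, 1.5-fold and 3-fold thresholds, and limma without filter, without mean trend or with 1 probe set per gene. Normalization without the C3H chow array was added after seeing the data. Promoters are RefSeq's. Other steps ran in Python 3.11.15 (pandas 2.3.3, numpy 2.4.6, scipy 1.17.1), and plots in matplotlib 3.10.9.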

Additional observations from a re-analysis of the deposited data

Results flagged for a closer look

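S100a4 was lower with Western diet in C57BL/6 (log2 -0.65) and higher in C3H (log2 1.13), so its arrays moved in opposite directions in the 2 strains. The difference between the strains was not tested.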

How the results depend on the processing

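The responses of S100a8 and S100a9 to Western diet kept their direction and stayed above 2-fold under each normalization, floor and probe-set rule tried. Over the normalizations they were 4.76-fold to 5.13-fold and 4.00-fold to 4.36-fold in C57BL/6, and 4.30-fold to 4.78-fold and 3.62-fold to 4.24-fold in C3H. With the floor at the 60th percentile, S100a8 lay under it on both chow arrays, its responses became at least 3.11-fold in C57BL/6 and at least 3.37-fold in C3H, and the members counted as 2-fold higher went from 2 to 1 and from 4 to 3. S100a6 passed 2-fold in C3H on chow, for 2 members lower in place of 1, with the deposited intensities, equal array medians and cyclic loess (up to 2.25-fold). S100a10 ranged from 1.27-fold to 2.12-fold higher in the response of C3H. On chow its difference of C3H from C57BL/6 ranged from log2 -0.61 to 0.16, and it changed direction with the median over its probe sets. With the floor at the 25th percentile, the chow signal of S100b in C57BL/6 passed it, so that 1 member rather than 0 was higher in C3H on chow, and 3 rather than 2 with Western diet in C57BL/6. A threshold of 1.5-fold gave 1 member lower with Western diet in C57BL/6 (14.3% of all genes), 5 higher in C3H (17.1%), 1 higher and 2 lower in C3H on chow (20.8% and 20.4%), and 1 higher on Western diet (13.3%), and one of 3-fold left 2 members higher with Western diet in C3H. The difference of the diet responses of S100b (log2 -3.08 by its representative set, with 1 signal under the floor) turned to 0.00772 with the median over its 2 sets, which oppose each other. Without the C3H chow array the counts of members at least 2-fold higher or lower did not move in the 2 comparisons that could still be made. The Western diet response of S100b in C57BL/6 was then 1.49-fold, with both arrays above the floor, in place of at least 3.00-fold. Without that array the further set has the higher mean signal and so represents S100b. The value is thus that of the further set (1.48-fold in the main setting), read in place of the other set. The strain term of limma called 57 probe sets, and 119 with no filter, 0 with no mean trend (804 at an unadjusted p under 0.05) and 27 with 1 probe set per gene. The diet term called 0, and 5 with no filter, of which 1 was an S100 set, S100a9. Its adjusted p in limma was 0.189 to 0.981 under the other settings. The number of fixed lists with a median past 1.5-fold in the diet response of C57BL/6 was 1, and it was 3 with deposited intensities, cyclic loess or the 60th percentile floor, 4 with the 25th percentile floor and 0 with equal medians. The cause of these shifts was not tested. Of 240 alternative values of single members, 234 stayed within the probe-set spread, and the other 6 were of S100b. Staying within this spread allows a change of direction, as for S100a10 on chow. No paired analysis was possible because each group has 1 array and no replicate number, although the additive limma fit compares the diets within strains. Signal over the floor limits S100b and the chow values of S100a8 most.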

Other observations

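Other S100 family genes on the array numbered 6, of which 4 were above the floor on at least 1 array. S100a16, a widely expressed member, had signals of 577.0 and 786.6 in C57BL/6 (chow, then Western) and of 892.4 and 903.1 in C3H, and was lowest on C57BL/6 chow. S100pbp, which encodes a binding protein of the S100P protein, had 106.8, 106.2, 108.4 and 125.3. S100a3, a gene of hair follicles, was above the floor in C3H alone, with 23.0 and 31.1 in C57BL/6 and 143.9 and 96.3 in C3H, which puts it at least 1.72-fold (chow) and at least 1.15-fold (Western diet) above C57BL/6. S100a5, singled out after its values were seen, lies between S100a4 and S100a6 on the chromosome and did not share their pattern, with 19.5, 93.2, 179.8 and 24.6.

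Of lymphocyte genes, 7 were on the array and 1 was above the floor on both arrays of each comparison. Their strongest, Cd79b, Cd3e and Ms4a1, had signals of 112.2, 129.3, 99.9 and 102.1, of 93.2, 13.9, 59.8 and 91.6, and of 89.5, 33.8, 19.6 and 55.3.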
